A study of Mus musculus with 48 samples.

Results

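The circadian output genes of the mouse are described here in the left ventricle of perfused hearts: Dbp, Tef and Hlf, Nfil3, Bhlhe40 and Bhlhe41, Rora, Usp2 and Tsc22d3. The members are these 9 gene symbols, and every array probe that the platform annotation maps to one of them was taken. The annotation used here maps 16 probes to 8 of the symbols, out of 46624 probes and 17711 genes with a single symbol on the array. It maps none to Nfil3, which is not analysed here. Usp2 is counted with the group as a clock-driven gene, although its product is an enzyme and not a transcription factor.

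RNA was measured on 48 Illumina mouse bead arrays, 1 per heart, from male C57BL/6 mice of 4 ages, which were 8, 16, 32 and 48 weeks. Each heart was perfused outside the body in Langendorff mode and stabilised for 20 min. It then went through 25 min of global ischaemia and 45 min of reperfusion (I/R), or stayed under normoxic perfusion for the same time. Crossing age with perfusion gave 8 groups, with 6 different hearts in each. All groups shared the strain, the sex, the anaesthetic (pentobarbital), the perfusion and the housing under a light and dark cycle, and an excised, perfused heart has no circulating hormones or nerve supply. The hour at which each heart was collected is not given in the sources used here, so no value could be set against it.

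The circadian clock of a cell is a loop in which CLOCK and BMAL1 (the product of Arntl) bind E-boxes and switch on the Per and Cry genes, whose products then block them. The same pair switches on output genes. DBP, TEF and HLF are related bZIP activators that bind D-boxes, and NFIL3 is a bZIP repressor of those sites. BHLHE40 and BHLHE41 are repressors that bind E-boxes, and RORA is a nuclear receptor that activates Arntl. USP2 is a deubiquitinase that acts on clock proteins, and TSC22D3, also called GILZ, is a leucine zipper protein induced by glucocorticoids. In the mouse heart Dbp and Tef transcripts rise and fall over the day, and Arntl runs in the opposite phase.

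The promoters below belong to the members that varied together most closely between hearts, Dbp, Tef and Usp2, and to Per3 and Arntl, which followed and opposed them. Each is the 250 bases before the start of transcription, from RefSeq on the GRCm38.p6 build, where 8 of the 9 members had an entry (none for Bhlhe40). Capitals mark E-boxes (CACGTG) and D-boxes (TTANGTAA), and in Arntl the ROR element (TNGGTCA) to which RORA and its relatives bind. Dbp lies at chr7:45704997-45705246 on the plus strand. The pair of Tef starts lies at chr15:81802423-81802672 and chr15:81811164-81811413, and Usp2 at chr9:44084670-44084919, all on the plus strand. Per3 lies at chr4:151044666-151044915 on the minus strand and the first of 2 Arntl starts at chr7:113207215-113207464 on the plus strand.
Dbp: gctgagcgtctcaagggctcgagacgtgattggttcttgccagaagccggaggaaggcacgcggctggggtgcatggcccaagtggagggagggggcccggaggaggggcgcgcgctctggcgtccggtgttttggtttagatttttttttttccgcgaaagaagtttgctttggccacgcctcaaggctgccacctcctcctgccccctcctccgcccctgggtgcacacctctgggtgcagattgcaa
Tef, start 1: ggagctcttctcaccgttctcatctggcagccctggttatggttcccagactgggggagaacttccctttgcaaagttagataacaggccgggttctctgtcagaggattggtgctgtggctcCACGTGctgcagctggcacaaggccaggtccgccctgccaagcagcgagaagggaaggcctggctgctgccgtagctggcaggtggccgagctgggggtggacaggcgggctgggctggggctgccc
Tef, start 2: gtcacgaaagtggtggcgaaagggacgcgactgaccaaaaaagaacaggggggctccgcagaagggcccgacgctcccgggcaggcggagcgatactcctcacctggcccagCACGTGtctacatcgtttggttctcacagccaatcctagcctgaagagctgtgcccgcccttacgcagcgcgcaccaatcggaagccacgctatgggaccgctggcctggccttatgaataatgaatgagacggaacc
Usp2: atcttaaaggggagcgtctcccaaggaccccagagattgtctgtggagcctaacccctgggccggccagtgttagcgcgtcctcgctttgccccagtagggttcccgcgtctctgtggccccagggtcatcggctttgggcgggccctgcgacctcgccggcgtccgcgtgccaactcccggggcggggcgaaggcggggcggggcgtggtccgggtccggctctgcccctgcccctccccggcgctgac
Per3: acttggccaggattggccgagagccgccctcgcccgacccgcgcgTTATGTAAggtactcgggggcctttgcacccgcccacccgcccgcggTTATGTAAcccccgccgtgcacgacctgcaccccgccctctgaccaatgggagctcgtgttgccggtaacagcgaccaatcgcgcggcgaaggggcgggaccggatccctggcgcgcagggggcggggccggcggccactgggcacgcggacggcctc
Arntl: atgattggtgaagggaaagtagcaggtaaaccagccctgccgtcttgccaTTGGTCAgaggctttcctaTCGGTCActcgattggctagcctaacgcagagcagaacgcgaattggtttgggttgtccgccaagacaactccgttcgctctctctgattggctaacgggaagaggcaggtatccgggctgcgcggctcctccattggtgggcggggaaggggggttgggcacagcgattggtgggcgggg

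Both strands were searched from 250 bases before to 50 after each start. Each Tef window held 1 E-box, 127 and 138 bases before its start. An E-box was present in 7.15% of 32817 promoter windows of this length. The Dbp and Usp2 windows held neither an E-box nor a D-box, which says only that these letters are not in these windows. The Per3 window held 2 D-boxes, 205 and 158 bases before the start, a motif found in 2.32% of windows. The Arntl window held 2 ROR elements, 200 and 181 bases before the start, found in 11% of windows. The second Tef window and the Per3 window also held 1 ROR element each, not capitalised here. Of the other members, Bhlhe41 had an E-box 153 bases before its start.

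The values below are log2 signals after background correction and quantile normalization between arrays, and a probe was called detected on an array where its detection p was under 0.05. Of the 16 member probes, 11 covering 6 genes were detected on at least 6 of the 48 arrays and entered the tests, together with 17624 probes of all genes. Dbp, Tef, Bhlhe40 and Rora each had a probe detected on all 48 arrays, and Usp2 had 2 such probes. Hlf and Bhlhe41 had a single probe each, detected on 0 of 48 arrays, so both were not well above background in every group. Their log2 signals ran from 4.75 to 5.54 and from 4.60 to 5.45 over the 48 hearts. The remaining 3 probes left out were dim second or later probes of Rora, Usp2 and Tsc22d3. They were detected on 3, 0 and 0 of the 48 arrays.

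Where a gene had several probes they are numbered from the brightest, probe 1, and levels are compared between hearts within a probe and not between probes. The 2 dimmer Tef probes were detected mostly in normoxic hearts. Probe 2 was detected on 24 of 24 normoxic and 9 of 24 I/R arrays, and probe 3 on 14 and 2. Usp2 probe 3 was detected on 12 of 24 normoxic and 0 of 24 I/R arrays. Tsc22d3 probe 1 was detected on 24 of 24 normoxic and 8 of 24 I/R arrays, and probe 2 on 21 and 9. Tef probe 3, Usp2 probe 3 and Tsc22d3 probe 1 are annotated to another RefSeq transcript of the gene than its other probes.

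The arrays differed by treatment in ways that touch every I/R comparison. The RNA integrity number (RIN) was 8.50 ± 0.296 (SD, n = 24) in normoxic and 7.87 ± 0.296 (SD, n = 24) in I/R hearts. Probes detected numbered 13362 to 15080 in normoxic and 11072 to 13854 in I/R hearts, and the background signal was 121.3 to 141 and 144.2 to 180.9. All 12 cardiomyocyte markers were detected on all arrays, and no neutrophil or lymphocyte marker passed the detection filter. The summed endothelial marker signal was 20511 to 27705 in normoxic and 14001 to 22813 in I/R hearts, where 12 of 14 markers passed the test, 10 of them lower. Of the fibroblast markers 9 of 10 tested passed, 5 higher and 4 lower, of the smooth muscle and pericyte markers 7 of 8, 2 higher and 5 lower, and of the macrophage markers 5 of 8, 2 higher and 3 lower. Of the cardiomyocyte markers 10 of 12 passed, 5 in each direction. Of erythroid, adipocyte, neural and skeletal muscle markers 1, 1, 1 and 3 were tested, and 0, 1, 1 and 1 passed. The part of RNA quality and of these markers in the I/R differences below was not tested beyond the values given. The labels name no slide, run or date, so a batch that followed age or treatment cannot be told apart from it. In bulk tissue, fewer cells of a type and less RNA per cell cannot be told apart.

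Dbp varied more between hearts of the same normoxic group than almost any other transcript measured. At 8 weeks its log2 signal in normoxic hearts ran from 7.60 through a median of 9.30 to 11.73. Here 5 of the hearts lay at or below 9.54 and replicate 6 stood alone at the top, and on the deposited scale the same hearts spanned 354.5 to 4108.3, an 11.6-fold range. At 16 weeks the values ran from 8.63 to 11.75 with a median of 10.52. There the hearts split into 3 between 8.63 and 9.65 and 3 between 11.40 and 11.75. At 32 weeks the range was 9.22 to 11.57 with a median of 10.86, and at 48 weeks 8.75 to 10.79 with a median of 10.32. All 4 normoxic ages overlapped.

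The pooled SD between normoxic hearts of the same age was 1.18 for Dbp, rank 7 from the top among 17624 probes, whose median SD was 0.213. Tef probe 1 followed at 0.601, the 99.7th percentile. Usp2 probes 1 and 2 stood at 0.390 and 0.444, the 97.1st and 98.5th percentiles. Bhlhe40, at 0.248, and Rora, at 0.178, lay at the 69.4th and 28.4th percentiles, so the wide spread was not shared by all members. Tsc22d3 probe 1, at 0.296, lay at the 86.7th percentile.

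After I/R the spread of Dbp was narrower at the older ages. Its log2 signal in I/R hearts was 8.28 to 11.44 with a median of 10.21 at 8 weeks, about as wide as in normoxic hearts. At 16 weeks it was 10.80 to 12.12 (median 11.88), and at 32 weeks 11.77 to 12.43 (median 12.15). At 48 weeks all 6 I/R hearts lay between 11.75 and 12.06 (median 11.88), and their deposited signals spanned 2504.9 to 3506.9, a 1.40-fold range. The pooled SD in I/R hearts was 0.615, still the 99.1st percentile of probes. For Tef probe 1 it was 0.316 and for Usp2 probe 1 0.297, the 58.3rd and 52.9th percentiles. The difference in spread between treatments was not tested.

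**Figure D1:**
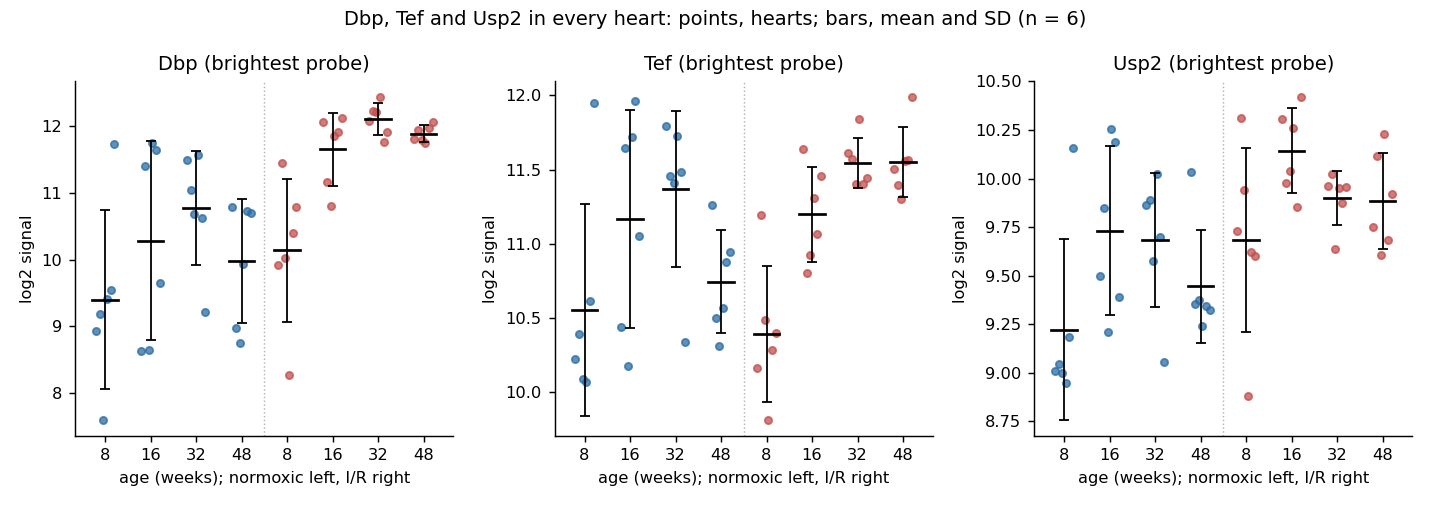
Log2 signal of the brightest probe of Dbp, Tef and Usp2 in every heart, by age in weeks, with normoxic hearts on the left of each panel in blue and I/R hearts on the right in red. Points are hearts and bars are the mean and SD of 6 hearts. Dbp spans 7.60 to 11.73 in normoxic hearts at 8 weeks and 11.75 to 12.06 in I/R hearts at 48 weeks.

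Tef, a close relative of Dbp, showed the same kind of spread at its brightest probe. In normoxic hearts its log2 signal was 10.07 to 11.95 (median 10.31) at 8 weeks and 10.18 to 11.96 (median 11.35) at 16 weeks. It was 10.34 to 11.79 (median 11.47) at 32 weeks and 10.31 to 11.26 (median 10.72) at 48 weeks. The top heart at 8 weeks was again replicate 6, and the lowest heart at 32 weeks was replicate 6 for both genes. After I/R Tef ran from 9.81 to 11.20 (median 10.34) at 8 weeks and from 10.80 to 11.64 (median 11.19) at 16 weeks. It ran from 11.40 to 11.84 (median 11.51) at 32 weeks and from 11.30 to 11.99 (median 11.53) at 48 weeks. The 8-week I/R hearts were the lowest of the 8 groups on average, and those of 32 and 48 weeks were the highest.

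Usp2, the deubiquitinase, was read by 2 probes on every array. At probe 1, normoxic hearts lay at 8.95 to 10.16 (median 9.03) at 8 weeks, 9.21 to 10.26 (median 9.67) at 16 weeks, 9.06 to 10.03 (median 9.78) at 32 weeks and 9.24 to 10.03 (median 9.35) at 48 weeks. I/R hearts lay at 8.88 to 10.31 (median 9.68), 9.85 to 10.42 (median 10.15), 9.64 to 10.02 (median 9.95) and 9.61 to 10.23 (median 9.83) at the same ages. The treatments overlapped at each age, with the I/R median the higher each time. Within normoxic groups the 3 Usp2 probes tested moved together, with r of 0.85 to 0.88 between pairs of probes. Within I/R groups r was 0.49 between probes 1 and 2, and 0.25 and -0.04 for the pairs with probe 3, which was detected on 0 I/R arrays.

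Hearts with high Dbp had high Tef and high Usp2. Deviations from the mean of the heart's own group were correlated over the 24 normoxic hearts, taking each of the 6 genes at its brightest probe, which gave 15 pairs. Of these pairs 3 passed the permutation test in which hearts were shuffled within groups, two-sided, with p adjusted over the 15 pairs. Dbp and Tef gave r = 0.93 and rho = 0.92, with a permutation p of 1e-05, the smallest that the resamples can give, and adjusted p = 7.5e-05. Tef and Usp2 gave r = 0.91 and rho = 0.88, with the same smallest permutation p and adjusted p = 7.5e-05. Dbp and Usp2 gave r = 0.83 and rho = 0.81, with a permutation p of 4e-05 and adjusted p = 0.0002. Without the 2 hearts farthest from the median of the first gene, r was 0.93, 0.85 and 0.79 for these pairs.

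The Dbp and Tef relation was present at each age, with r of 0.90 at 8 weeks, 0.98 at 16, 0.97 at 32 and 0.90 at 48 weeks over 6 hearts each. That of Dbp and Usp2 was 0.87, 0.92 and 0.97 at 8, 16 and 32 weeks and 0.37 at 48 weeks. Tef and Rora reached r = 0.53 and Rora and Usp2 r = 0.49, with permutation p adjusted over the pairs of 0.0573 and 0.06, and did not pass. Dbp and Bhlhe40 gave r = 0.27 over all normoxic hearts, with 0.90 at 8 weeks and -0.35 at 16 weeks. Dbp and Tsc22d3 gave r = 0.08, with -0.91 at 8 weeks and 0.92 at 16 weeks. Neither of those 2 pairs held its sign across ages.

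In the 24 I/R hearts 4 of the 15 pairs passed. Dbp and Tef gave r = 0.80 and rho = 0.74 (permutation p = 0.00072, adjusted p = 0.00395), and 0.64 without the 2 farthest hearts. Tef and Usp2 gave r = 0.74 and rho = 0.62 (permutation adjusted p = 0.00844), and 0.49 without those hearts. Rora was in 2 of the pairs that passed: Tef and Rora gave r = 0.71 and Rora and Usp2 r = 0.67 (permutation adjusted p = 0.00225 and 0.00395). Dbp and Usp2 gave r = 0.69 with a permutation adjusted p of 0.0522, rho = 0.31, and r = 0.15 without the 2 farthest hearts, so at these probes the relation rests on those hearts. It passed with the second brightest Usp2 probe (r = 0.73, permutation adjusted p = 0.0006), with median centring (0.0116), with the authors' values (0.0463) and with the replicate block (0.0166). Whether any pair differed between treatments was not tested.

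**Figure D2:**
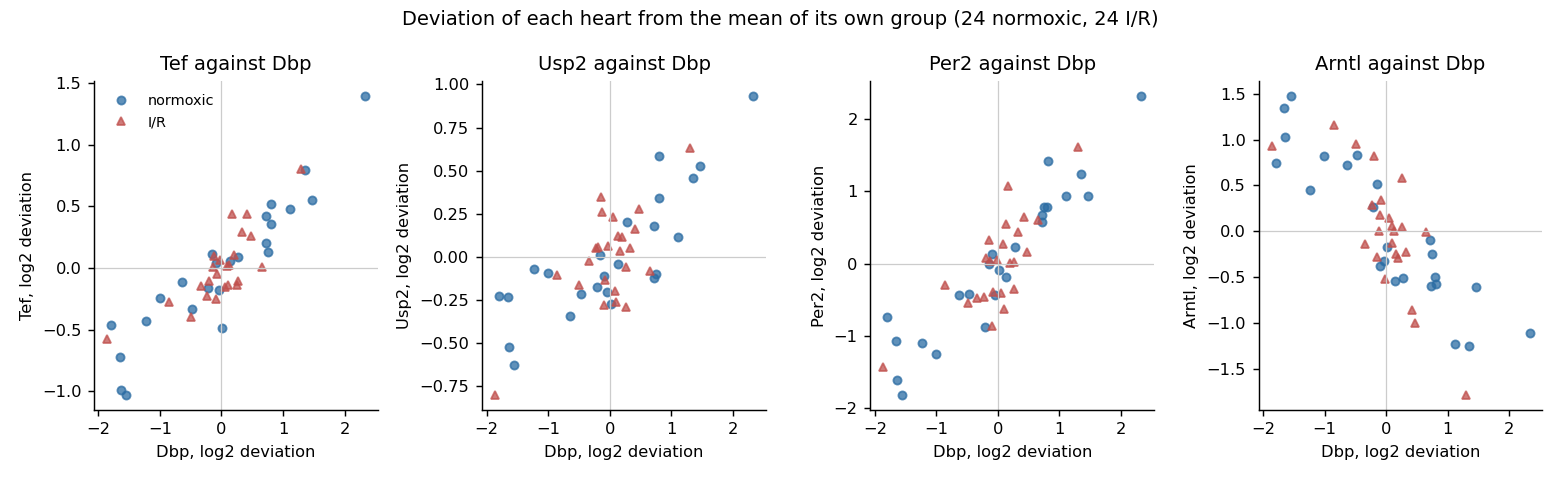
Deviation of Tef, Usp2, Per2 and Arntl from the mean of the heart's own group, against that of Dbp, in log2 units, with 24 normoxic hearts as blue circles and 24 I/R hearts as red triangles. Tef, Usp2 and Per2 rise with Dbp and Arntl falls, with r in normoxic hearts of 0.93, 0.83, 0.94 and -0.90.

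Of the 10 genes whose deviations were most like those of Dbp over the 24 normoxic hearts, 5 belong to the clock or its outputs. Per2 and Per3, repressors of the core loop, gave r = 0.94 each, Tef 0.93, Usp2 (at probe 2) 0.87, and Cry2, the partner of the PER proteins, 0.83. The other 5 were Cd2bp2 (0.86), Gstt3 (0.84), Cygb (0.84), Ephx1 (0.83) and Ccdc85b (0.82). The 5 lowest were Arntl (-0.90), Leo1 (-0.86), Clock (-0.84), Clmp (-0.84) and Rhoj (-0.84). Across the 17613 tested probes that map to no member the median absolute r with Dbp was 0.191 and the 95th percentile 0.517, and 19 probes had an absolute r over 0.8. In I/R hearts these clock genes kept their sign, with r of 0.77 for Per2, 0.69 for Per3, 0.70 for Cry2, -0.75 for Arntl and -0.41 for Clock. Cd2bp2 and Gstt3 gave 0.37 and 0.17 there. These likenesses are descriptions over hearts that share an array platform and a preparation, and they carry no test.

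Per2 also spread widely between hearts of 1 group. In normoxic hearts its log2 signal was 5.67 to 8.87 (median 6.25) at 8 weeks, 6.22 to 9.07 (median 8.08) at 16, 6.38 to 8.98 (median 8.38) at 32 and 5.85 to 8.51 (median 7.16) at 48 weeks. Arntl, which encodes the activator BMAL1, ran against it, with medians of 6.80, 6.17 and 6.35 at 8, 16 and 48 weeks. Its probe was detected on 5, 3, 2 and 6 of 6 normoxic arrays at 8, 16, 32 and 48 weeks, so its low values, those of 32 weeks above all, lie at or below the detection limit and have no order. After I/R Per2 had medians of 6.96, 9.02, 9.26 and 9.07 and Arntl a median of 7.67 at 8 weeks. Arntl was detected on 5, 3, 1 and 0 of 6 I/R arrays at the 4 ages. So among the I/R groups that of 8 weeks was lowest in the Dbp, Tef and Per2 medians.

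Of 14 core clock genes tested, 6 had an absolute r over 0.7 with Dbp in normoxic hearts, 7 with Tef and 6 with Usp2. None did with Rora, Bhlhe40 or Tsc22d3, whose values largest in size were 0.68 with Cry2, -0.56 with Fbxl21 and 0.44 with Tipin. Over I/R hearts the counts were 2 for Dbp, 4 for Tef, 2 for Usp2, 2 for Rora and 0 for Bhlhe40 and Tsc22d3. Rora gave 0.77 with Per2 and 0.71 with Per3 there, beside 0.77 and 0.69 for Dbp. Differences between members or treatments in these values were not tested. Within the loop, Per1 gave 0.75 with Dbp, Ciart 0.67, Nr1d1 0.34 and Nr1d2 -0.51. After I/R Nr1d2 gave 0.40 and Nr1d1 0.65. For Tef the 3 closest genes were Per3 (0.95), Per2 (0.94) and Dbp, and the 3 lowest Spon2 (-0.90), Clmp (-0.90) and Leo1 (-0.86). For Usp2 they were Tef, Per3 (0.90) and Klf9 (0.88), a clock- and glucocorticoid-driven factor, and Clmp (-0.87), Nip7 (-0.85) and Slc41a3 (-0.84).

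**Figure D3:**
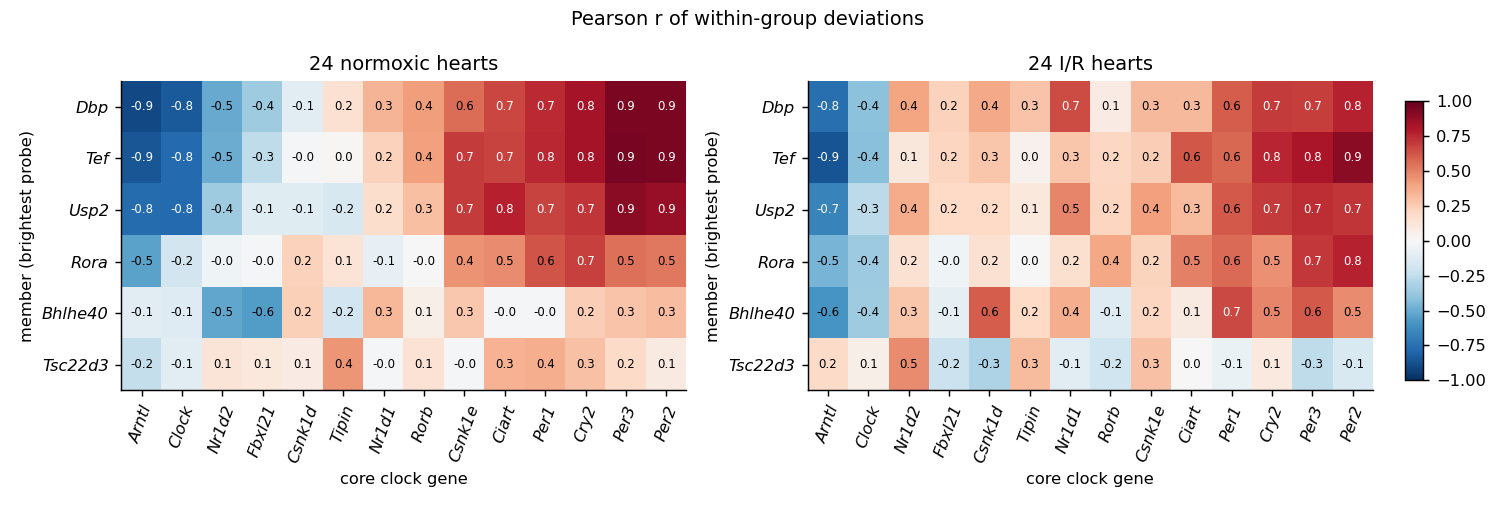
Pearson r of within-group deviations between 6 members (rows, brightest probe) and 14 core clock genes (columns, ordered by r with Dbp in normoxic hearts), over 24 normoxic hearts on the left and 24 I/R hearts on the right. In normoxic hearts Dbp runs from -0.90 with Arntl to 0.94 with Per2, and Rora, Bhlhe40 and Tsc22d3 have no value over 0.7 in size. In I/R hearts Rora reaches 0.77 with Per2 and 0.71 with Per3.

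For Rora, Bhlhe40 and Tsc22d3 none of the 3 closest genes in normoxic hearts was on the core clock list. Rora varied most like Hs2st1 (0.85), Cobll1 (0.82) and Gpcpd1 (0.79) in normoxic hearts, of which Cobll1 and Gpcpd1 gave 0.62 and 0.81 in I/R hearts and Hs2st1 0.00. Its lowest were Smim26 (-0.81), Miga2 (-0.81) and Tcim (-0.74). Bhlhe40 varied most like Mtmr12 (0.76), Thbd (0.72), which encodes thrombomodulin, and Tmem19 (0.71), and least like Lbx1 (-0.79), Timm44 (-0.70) and Cers2 (-0.69). Thbd gave 0.79 in I/R hearts and Tmem19 0.05. Tsc22d3 varied most like Sec23a (0.85), Rab1b (0.79) and Itm2a (0.77), none of which passed 0.12 in I/R hearts. Its probe was detected on 8 of 24 I/R arrays, so r there says little. The lowest for Tsc22d3 were Pla2g4e (-0.76), Sos2 (-0.72) and Slc23a2 (-0.69). All these genes are extremes picked from all probes, with no test. The 95th percentile of absolute r in normoxic hearts was 0.504 for Rora, 0.453 for Bhlhe40 and 0.478 for Tsc22d3. Hs2st1, Lbx1, Pla2g4e and Slc23a2 were dim, at mean log2 signals of 5.78, 5.54, 5.59 and 5.52.

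With the 21 tested immediate early genes, Bhlhe40 had a median r of 0.72 in I/R hearts, with 21 of 21 positive, and 0.24 in normoxic hearts, with 15 of 21 positive. Over all probes that map to no member its median r was -0.02 in I/R hearts. Other members also had positive r with most of these genes in I/R hearts: the median was 0.52 for Dbp (20 of 21 positive), 0.42 for Tef, 0.34 for Usp2 and 0.31 for Rora (21 of 21 each), and 0.01 for Tsc22d3 (11 of 21). The change from normoxic hearts was not tested.

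I/R was compared with normoxic perfusion as the mean over the 4 ages, with limma across all 17624 probes and p-values adjusted over all of them (Benjamini-Hochberg, threshold 0.05). Of the 11 member probes 10 passed, where 78.9% of all probes did. Of these 6 were lower, where 46.4% of all probes were, and the other 4 were higher. The 6 include Tef probe 3 and Usp2 probe 3, which passed the detection filter only through normoxic hearts. Their lower calls therefore cannot be read as a fall. The median difference was -0.24 over the 11 member probes. A share this close to that of all probes is no result about the members. Most transcripts moved, and the direction of a moderate change depends on the scaling: the median difference of all probes was -0.10 with quantile normalization and -0.55 with median centring of each array. With median centring 2826 of the called probes were higher and 12430 lower, against 5736 and 8178. Differences are therefore also given relative to the median of all probes.

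Dbp was the member with the largest rise in log2 units among the 11 probes. Its mean log2 signal was 10.11 in normoxic and 11.45 in I/R hearts, a difference of 1.34 ± 0.257 (SE) or 2.53-fold, with limma adjusted p = 9.14e-06. Relative to the median of all probes the difference was 1.44 with quantile normalization and 1.18 with median centring. Adding RIN to the fit gave 1.19 (limma adjusted p = 0.0197), and lost the calls at 16 and 32 weeks, at 1.20 and 1.18 (0.145 and 0.121), but not at 48 weeks, at 1.74 (0.0255). By age it was 0.74 at 8 weeks (limma adjusted p = 0.225), 1.36 at 16 (0.0224), 1.33 at 32 (0.0215) and 1.91 at 48 weeks (0.0014). Treatments did not overlap at 32 and 48 weeks, where every I/R heart lay above every normoxic heart, and they overlapped at 8 and 16 weeks. At 32 and 48 weeks 64.5% and 62.3% of all probes passed the limma test. The share of all probes whose groups do not overlap is not given here for any comparison. A lack of overlap, here or below, therefore describes the values and does not set a member apart from other probes. The dependence of the difference on age did not pass (limma adjusted p = 0.629). With median centring no single age passed for Dbp, at 0.07, 0.80, 0.62 and 1.05 for the 4 ages (limma adjusted p = 0.901, 0.14, 0.255 and 0.0506).

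Single hearts decided some of these calls. Without replicate 6 of the normoxic 32-week hearts the Dbp difference at 32 weeks was 1.02 (limma adjusted p = 0.0849). At 16 weeks the call was lost without normoxic replicate 1, 3 or 6, with differences down to 1.03 (highest limma adjusted p = 0.0912). At 8 weeks it was gained without normoxic replicate 6, at 1.21 (limma adjusted p = 0.0368).

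Tef gave no single direction across its probes. Probe 1 differed by 0.21 ± 0.132 (SE; limma adjusted p = 0.138) over the ages. With median centring that difference was -0.50 and passed as lower (limma adjusted p = 0.000275), where the median of all probes was -0.55. At 48 weeks probe 1 differed by 0.81 ± 0.265 (limma adjusted p = 0.00777), and every I/R heart lay above every normoxic heart. With RIN as a covariate it was 0.56 at that age (limma adjusted p = 0.159). With median centring that 48-week difference was -0.083 (limma adjusted p = 0.769), or 0.57 relative to the median of all probes. The dim probe 2 had normoxic medians of 6.63, 6.51, 6.55 and 6.38 and I/R medians of 5.85, 5.68, 5.70 and 5.61 at the 4 ages. It was lower after I/R, at a mean of 5.73 against 6.49, a difference of -0.76 ± 0.0888 (SE; limma adjusted p = 1.79e-10). It was detected on 9 of 24 I/R arrays, so most of its I/R values lay at the detection limit or below. Over other settings the difference was as small as -0.19, still past the threshold. Deviations of probe 2 did not follow those of probe 1, with r of -0.14 in normoxic hearts, although both are annotated to the same transcript. Probe 3, detected on 14 normoxic and 2 I/R arrays, passed the detection filter only through normoxic hearts and was called lower (limma adjusted p = 0.00244). That call was lost with RIN as a covariate (limma adjusted p = 0.18) and with the authors' values (0.17), and no fold can be given at 8, 32 or 48 weeks, where 0 I/R arrays detected it.

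Bhlhe40, the E-box repressor, was higher after I/R with quantile normalization, a direction that median centring did not keep. In normoxic hearts its log2 signal was 10.41 to 11.20 (median 10.71), 10.25 to 11.04 (10.49), 10.18 to 10.87 (10.56) and 10.68 to 11.08 (10.81) at 8, 16, 32 and 48 weeks. In I/R hearts it was 10.60 to 11.39 (median 11.20), 10.62 to 11.52 (11.35), 11.39 to 11.64 (11.51) and 10.96 to 11.29 (11.25). The groups were apart at 32 weeks and overlapped at the other ages. The mean difference was 0.58 ± 0.0716 (SE; limma adjusted p = 7.45e-10), and it was 0.59 with RIN as a covariate. With median centring it was -0.15 (limma adjusted p = 0.0814), which is 0.40 above the median of all probes, against 0.68 with quantile normalization. With that centring Bhlhe40 passed as lower at 8 and 48 weeks, at -0.36 and -0.56 (limma adjusted p = 0.046 and 0.00202). At 16 and 32 weeks it was 0.12 and 0.20 and did not pass (limma adjusted p = 0.533 and 0.258).

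Bhlhe40 was the member probe whose I/R difference depended on age (limma adjusted p = 0.0388), 1 of 11 where 22.4% of all probes passed. The differences were 0.32, 0.69, 0.96 and 0.36 at 8, 16, 32 and 48 weeks (limma adjusted p = 0.0584, 7.23e-05, 1.41e-07 and 0.0285). The 48-week call was lost without normoxic replicate 2, 3 or 4 (highest limma adjusted p = 0.0613). The age dependence did not pass with array weights or with no filter on dim probes, nor in 16 of the 48 fits that left out 1 heart.

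Usp2 probe 1 was higher after I/R by 0.38 ± 0.0967 (SE; limma adjusted p = 0.000449) and probe 2 by 0.25 ± 0.0993 (0.0184). Both differences turned negative with median centring and passed as lower, at -0.36 and -0.40 (limma adjusted p = 0.00062 and 0.00021). There they lay 0.19 and 0.15 above the median of all probes. With RIN as a covariate neither passed, at 0.26 and 0.11 (limma adjusted p = 0.169 and 0.593), and with the authors' values probe 2 gave 0.073 (0.121). By age probe 1 passed at 8 and 48 weeks, at 0.46 and 0.44 (limma adjusted p = 0.0421 and 0.0463), calls that were lost in 9 and 8 of the fits that left out 1 heart, at differences down to 0.33 and 0.37. At probe 2 the normoxic medians were 6.72, 7.47, 7.59 and 7.23 and the I/R medians 7.20, 7.70, 7.60 and 7.56 at the 4 ages. The 6 I/R hearts of 48 weeks lay between 7.50 and 7.68 there, and the normoxic hearts of that age between 6.69 and 7.86. Probe 3, annotated to another transcript, was detected on 12 of 24 normoxic and 0 of 24 I/R arrays. It passed the detection filter only through normoxic hearts, and since its normoxic mean did not exceed the detection limit of the I/R arrays, no fold can be given over the ages. Its test is counted among the calls above but carries no size.

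Rora, the activator of Arntl, was lower after I/R, and its groups were narrow. In normoxic hearts its log2 signal was 8.73 to 9.08 (median 8.89), 8.80 to 9.22 (9.05), 8.60 to 9.33 (9.11) and 8.75 to 9.10 (8.89) at 8, 16, 32 and 48 weeks. In I/R hearts it was 8.38 to 8.82 (median 8.60), 8.68 to 9.03 (8.83), 8.57 to 8.86 (8.68) and 8.51 to 8.99 (8.76). The treatments overlapped at every age, with the I/R median lower each time. The mean difference was -0.26 ± 0.0507 (SE; limma adjusted p = 1.27e-05), and -0.19 with RIN as a covariate (limma adjusted p = 0.057). Relative to the median of all probes it was -0.16 with quantile normalization and -0.44 with median centring. By age it passed at 8 weeks, at -0.30 (limma adjusted p = 0.012), and at 32 weeks, at -0.39 (0.000948), and not at 16 and 48 weeks, at -0.20 and -0.15 (0.0943 and 0.194).

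Tsc22d3, the glucocorticoid-induced leucine zipper, had the largest fall among the member probes at probe 1. In normoxic hearts its log2 signal was 5.98 to 6.99 (median 6.81), 6.38 to 7.09 (6.70), 6.30 to 7.04 (6.82) and 6.24 to 6.96 (6.51) at the 4 ages. In I/R hearts it was 5.33 to 5.95 (median 5.50), 5.33 to 5.78 (5.52), 5.86 to 6.47 (6.08) and 5.24 to 6.61 (5.76). The treatments were apart at 8 and 16 weeks and overlapped at 32 and 48 weeks. Probe 1 was detected on 1, 0, 5 and 2 of 6 I/R arrays at the 4 ages, so most I/R values lay at the detection limit or below. The mean difference was -0.92 ± 0.0855 (SE; limma adjusted p = 2.38e-13), and -0.71 with RIN as a covariate (3.96e-05). Over the other settings it ran from -1.26 to -0.25 and stayed past the threshold. At 16 weeks, where the probe was detected on 6 of 6 normoxic and 0 of 6 I/R arrays, it was at least 1.85-fold lower (limma adjusted p = 1.06e-07), measured against the lowest signal detected on each array. That bound belongs to the processing used here, as over other settings the 16-week difference was as small as -0.32.

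The other Tsc22d3 probe moved less. Probe 2, of another transcript, differed by -0.32 ± 0.108 (SE; limma adjusted p = 0.00645) over the ages and passed at 16 weeks alone, at -0.53 (limma adjusted p = 0.0333). With the authors' values neither passed, at -0.058 and -0.13 (limma adjusted p = 0.103 and 0.0884). The 16-week call was also lost with no filter on dim probes (limma adjusted p = 0.0647), with only the groups compared (0.0583) and in 6 of the fits that left out 1 heart. Relative to the median of all probes its mean difference was -0.22 with quantile normalization and -0.01 with median centring. Its normoxic medians were 6.00, 6.32, 5.99 and 6.03 and its I/R medians 5.37, 5.53, 5.78 and 6.10. Probes 1 and 2 moved together between normoxic hearts (r = 0.59) and not between I/R hearts (r = -0.09).

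**Figure D4:**
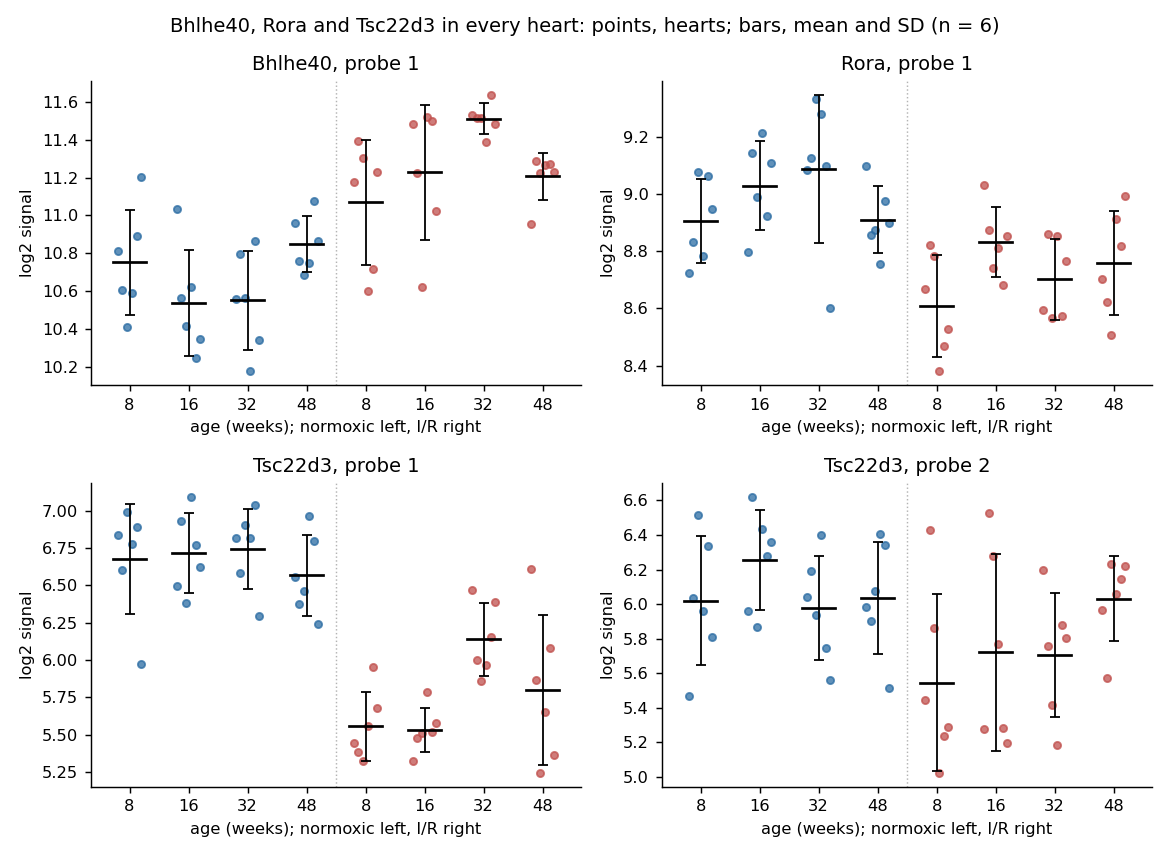
Log2 signal of Bhlhe40, Rora and both tested Tsc22d3 probes in every heart, by age in weeks, normoxic on the left in blue and I/R on the right in red, with the mean and SD of 6 hearts. Tsc22d3 probe 1 shows no overlap between treatments at 8 and 16 weeks, where normoxic hearts lie at 5.98 to 7.09 and I/R hearts at 5.33 to 5.95. It was detected on 1 and 0 of 6 I/R arrays at these ages.

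**Figure D5:**
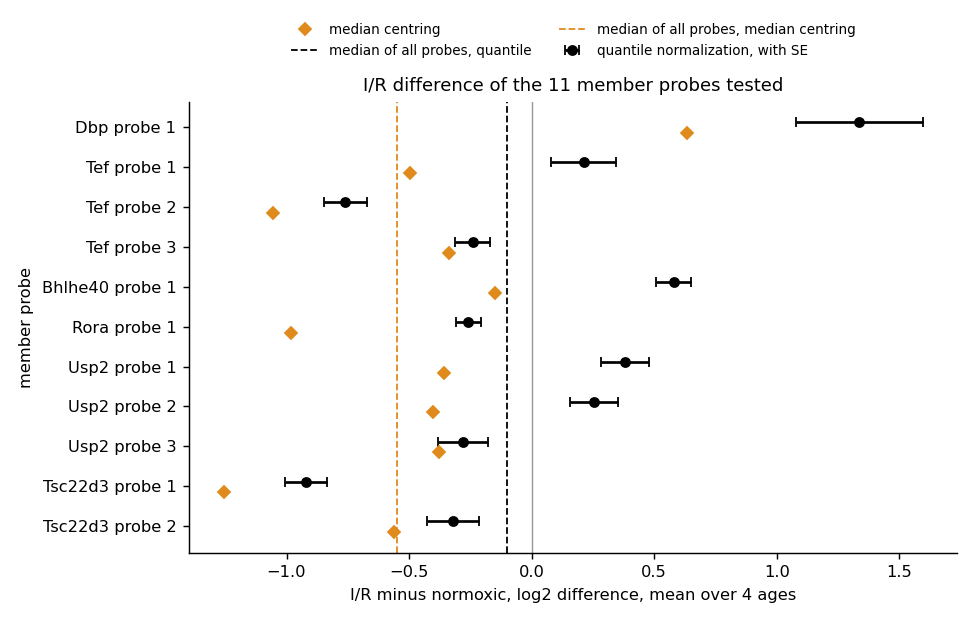
Difference between I/R and normoxic hearts in log2 units, mean over 4 ages, for the 11 member probes tested. Black points are the quantile-normalized fit with its SE, orange diamonds the same with median centring of each array, and the dashed lines mark the median of all probes under each, at -0.10 and -0.55. Dbp alone lies above 0 under both, at 1.34 and 0.63.

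Counted by age, 4 of the 11 member probes passed at 8 weeks (53.5% of all probes), 5 at 16 weeks (54.9%), 5 at 32 weeks (64.5%) and 7 at 48 weeks (62.3%). Tsc22d3 probe 1 and Tef probe 2 passed, lower, at every age. Tsc22d3 probe 1 gave -1.12 at 8 weeks, the bound of at least 1.85-fold lower at 16 weeks, and -0.61 and -0.76 at 32 and 48 weeks. At 8 weeks it was detected on 1 of 6 I/R arrays, and other settings gave as little as -0.31. Tef probe 2 gave -0.58, -0.77, -0.88 and -0.81. It was detected on 3, 2, 2 and 2 of 6 I/R arrays at these ages, so these sizes belong to the processing used here. Over other settings they were as small as -0.14, -0.19, -0.24 and -0.20. The member shares were below those of all probes at 8, 16 and 32 weeks and near it at 48 weeks.

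Age by itself moved no member past the threshold in normoxic hearts. By limma, 0 of 11 member probes passed for 16 against 8 weeks (0.0284% of all probes), with 3 at an unadjusted p under 0.05. For 32 against 8 weeks the count was 0 (1.15%), with 5 unadjusted, and for 48 against 8 weeks 0 (1.06%), with 0 unadjusted. For any difference among the 4 ages it was also 0 (1.15%), with 3 unadjusted and a lowest adjusted p of 0.259. In size, Dbp was 1.37 ± 0.514 (SE) higher at 32 than at 8 weeks (limma adjusted p = 0.254), Tef probe 1 0.81 ± 0.265 (0.149) and Usp2 probe 2 0.65 ± 0.199 (0.104). With array weights, which give less weight to hearts far from their group, these 3 and Usp2 probe 1 passed at 32 against 8 weeks, Dbp at 1.62 (limma adjusted p = 0.0432). Leaving out replicate 6 of the normoxic 8-week or 32-week hearts gave 2 calls in that comparison.

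Dbp and Tef probe 1 were higher in 48-week than in 8-week I/R hearts. The I/R means of Dbp were 10.14, 11.65, 12.11 and 11.89 at 8, 16, 32 and 48 weeks, so the rise was not steady. Those of Tef probe 1 were 10.39, 11.20, 11.54 and 11.55. The hour of collection is not given, so its part in these differences was not tested. The dim Tef probes 2 and 3 did not pass, at -0.39 and 0.08 for 48 against 8 weeks. At 48 against 8 weeks Dbp was 1.75 ± 0.514 (SE) higher, 3.35-fold (limma adjusted p = 0.00709), and Tef probe 1 1.16 ± 0.265 higher, 2.24-fold (limma adjusted p = 0.000582). Every 48-week heart lay above every 8-week heart for Dbp and for Tef probe 1. They were the 2 of 11 member probes called, where 33.2% of all probes were called. Median centring gave 1.60 and 0.99 (limma adjusted p = 0.00958 and 0.00153). Adding RIN to the fit gave 1.63 and 0.99 (limma adjusted p = 0.0357 and 0.0111). RIN was 8.08 ± 0.147 (SD, n = 6) in the 8-week and 7.60 ± 0.110 (SD, n = 6) in the 48-week I/R hearts, and probes detected were 13099 to 13854 and 11072 to 12396. For any difference among ages in I/R hearts, 3 of 11 member probes passed (45.1% of all probes), namely Dbp, Tef probe 1 and Tsc22d3 probe 1 (limma adjusted p = 0.00569, 0.000714 and 0.00906). Whether these age differences were larger than in normoxic hearts did not pass for any of the 3 (limma adjusted p = 0.629, 0.181 and 0.16).

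Ordered by mean, Dbp ran from I/R hearts of 32, 48 and 16 weeks through normoxic hearts of 32 and 16 weeks and I/R hearts of 8 weeks to normoxic hearts of 48 and 8 weeks. The ranges of all 7 neighbouring pairs overlapped. The gap was under the larger SD of the pair in 6 of 7, the exception being 0.88 between the 16-week I/R and the 32-week normoxic hearts. For Tef probe 1, Bhlhe40 and Rora all 7 gaps were under the larger SD. For Usp2 probe 1 and Tsc22d3 probe 1 it was 6 of 7. The exceptions were 0.24 between the 16- and 32-week I/R hearts and 0.43 between the 48-week normoxic and the 32-week I/R hearts.

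Dbp deviations were set against 10 other measures of the same hearts, namely RIN, background, probes detected and 7 marker lists. Each list was taken as the mean log2 signal of its markers. The atrial list (Myl7, Myl4, Nppa and Mybphl) was chosen after the data were seen. In normoxic hearts the strongest were macrophage markers (r = -0.46, rho = -0.32, permutation p = 0.055) and cardiomyocyte markers (r = 0.40, rho = 0.38, permutation p = 0.0377). The lowest p adjusted over the 10 measures was 0.275. Without the 2 farthest hearts these gave -0.22 and 0.40. The lowest adjusted permutation p in I/R hearts was 0.923. RIN gave r = -0.24 with Dbp in normoxic and 0.32 in I/R hearts. Tef and Usp2 were not tested in this way. Their median r with the 8 macrophage markers taken singly was -0.50 and -0.40 in normoxic hearts, beside -0.36 for Dbp. In I/R hearts it was 0.17 and -0.07, beside 0.07 for Dbp.

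The genes around the members moved in both directions after I/R, as the array did, and each count below stands beside 78.9% of all probes called, or 5736 higher and 8178 lower of 17624. In the core clock 8 of 14 genes tested passed, 3 higher and 5 lower, with a median of -0.07. By smallest p these were led by Clock (-0.77), Nr1d2 (-1.52), a repressor of Arntl, Csnk1e (-0.58), a kinase of the PER proteins, and Tipin (0.60). Per2 was higher by 1.19 (limma adjusted p = 3.88e-05), close to the difference of Dbp, while Per1 (-0.03) and Arntl (-0.11) did not pass. Among 22 clock-controlled genes 17 passed, 9 higher and 8 lower (median 0.07), led by Nampt (1.89), Tars (1.34), Myh6 (1.00) and Dgat2 (-0.80). In normoxic hearts Dbp and Tcap, a sarcomere gene of that list, gave r = 0.79, and in I/R hearts 0.92. Cdkn1a, a cell cycle inhibitor on the same list, gave -0.76 and 0.14. Both were named after their values were seen.

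Of 23 glucocorticoid-induced genes, the class of Tsc22d3, 15 passed, 9 higher and 6 lower (median 0.05). Glul (3.41), Nfkbia (2.82), Ddit4 (1.14) and Mt2 (0.74) led, all higher, while Tsc22d3 probe 1 was lower. Among 19 hypoxia-inducible genes 14 passed, 9 higher and 5 lower (median 0.16), led by Mxi1 (2.69), Ldha (-0.85), Adm (1.52) and Ndrg1 (1.03). Of 21 immediate early genes 19 passed, 12 higher and 7 lower (median 0.27), led by Klf4 (2.96), Egr2 (1.99), Egr1 (0.78) and Fosl2 (-1.04). Of 13 bZIP relatives of Dbp in the C/EBP, ATF and CREB families 11 passed, 5 higher and 6 lower (median 0.03), led by Atf4 (1.61), Cebpg (-0.82), Creb5 (1.28) and Atf7 (-1.06). The median over all probes was -0.10.

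For any age difference by limma, 1.15% of all probes passed in normoxic and 45.1% in I/R hearts. No core clock gene and no bZIP relative passed in normoxic hearts, and 11 of 14 core clock genes did in I/R hearts. The genes that passed in normoxic hearts were Cdkn1a and Gys1 among clock-controlled genes, Cdkn1a among glucocorticoid-induced genes, Vegfa among hypoxia-inducible genes, and Egr2, Zfp36 and Arc among immediate early genes, where Egr1, named after its value was seen, made 4.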

How the data were processed

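Left ventricular RNA of 48 perfused mouse hearts was measured on Illumina bead arrays after TotalPrep amplification, per the labels' protocols. The authors deposited a table of signal intensity with no normalization, whose detection column holds 1 minus the detection p-value as a fraction, as checked against the signals. A second table of values deposited by the authors is on a scale close to log2 (slopes of 0.897 to 1.06 on the log2 signal over 8021 probes), its medians lie at 7.81 to 7.83, all 48 columns ranked closest to their own array, and its transform and normalization are not given in the sources used here. The package lumi is named in the submitters' processing notes.

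Intensities were corrected for background by normexp with an offset of 16 and quantile normalized (limma 3.58.1, neqc, in R 4.3.3). Of 46628 lines, 4 had no identifier. Symbols came from the platform annotation, where 29971 probes had 1 symbol, 10 several and 16643 none. Of the probes with 1 symbol, 29916 had it updated through Entrez. Probes detected at p under 0.05 on at least 6 arrays were kept (17624, of which 4077 had no symbol), and each probe was fitted singly, with 1 mean per group over all 48 arrays. In all 12 comparisons were made, with p-values adjusted by Benjamini-Hochberg over all probes and a threshold of 0.05. Correlations used deviations from group means and 1e+05 permutations within groups (Python 3.11.15, SciPy 1.17.1). The fit was tested on simulated data. The number of arrays limits the precision. Hearts are separate samples per the labels, and no array correlated with that of another heart above 0.991.

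Same-numbered normoxic and I/R hearts of 1 age did not deviate together (0 of 24 correlations over 0.1), so the numbers were not used as pairs. This cannot exclude a shared day or order behind the numbers. Over all groups, same-numbered hearts gave r of -0.11 to 0.20 for number 1 and -0.07 to 0.21 for number 4. Named were every probe mapped to a member, the 10 highest and 5 lowest genes by likeness to Dbp (3 and 3 for other members), and from each list of core clock, clock-controlled, glucocorticoid-induced, hypoxia-inducible, immediate early and bZIP genes up to 4 genes by adjusted p after I/R and up to 3 by age. The members and lists were chosen with earlier results of these data known. The alternatives were median centring, no background correction, the authors' values, other filters, 1 probe a gene, RIN as a covariate, array weights, only the groups compared, the replicate block, Spearman's rho, the second brightest probe, and leaving out each heart.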

Additional observations from a re-analysis of the deposited data

Results flagged for a closer look

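Some hearts stood apart from the other 5 of their group at a member probe, by Dixon's test of the gap over the range. This was so in 7 of 88 combinations of probe and group, and chance gives about 1 in 20. Replicate 6 of the normoxic 8-week hearts was high, at a log2 signal of 11.95 for Tef probe 1 (others 10.07 to 10.61) and 10.16 for Usp2 probe 1 (others 8.95 to 9.18). Replicate 6 of the normoxic 32-week hearts was low, at 10.34 for Tef probe 1 (others 11.41 to 11.79), 8.60 for Rora (others 9.09 to 9.33) and 6.93 for Usp2 probe 2 (others 7.48 to 7.78). Replicate 1 of the normoxic 48-week hearts was high for Usp2 probe 1, at 10.03 (others 9.24 to 9.38). Replicate 1 of the I/R 48-week hearts was low for Bhlhe40, at 10.96 (others 11.22 to 11.29).

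The I/R difference of Bhlhe40 depended on age, by a limma test of the interaction of treatment and age (adjusted p = 0.0388).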

How the results depend on the processing

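Of 1126 values of members and pairs recomputed under other settings, 1033 kept their direction and side of the threshold, 38 fell below it, 37 passed it and 18 reversed. The cause was not tested for any of them. With median centring the I/R difference over all ages was -0.50 for Tef probe 1, -0.15 for Bhlhe40, -0.36 for Usp2 probe 1 and -0.40 for Usp2 probe 2, and all but that of Bhlhe40 passed. At 8 weeks it was -0.36 for Bhlhe40 and -0.21 for Usp2 probe 1. At 32 weeks it was -0.54 for Tef probe 1, -0.54 for Usp2 probe 1 and -0.62 for Usp2 probe 2. At 48 weeks it was -0.083 for Tef probe 1, -0.56 for Bhlhe40, -0.49 for Usp2 probe 1 and -0.55 for Usp2 probe 2. Median centring gave 9 member probes at 32 weeks, 1 at 32 against 8 weeks in normoxic hearts and 9 pairs in I/R hearts. With the second brightest probe, Dbp and Tef gave r = -0.039 in normoxic and -0.36 in I/R hearts, Tef and Usp2 -0.092 and -0.27, and Tef and Rora -0.20 in I/R hearts, where 1 pair passed. For I/R over all ages 6 member probes passed with the authors' values, 5 of 6 genes with 1 probe a gene, and 5 probes with RIN as a covariate. At 16 weeks 3 passed with 1 probe a gene. RIN as a covariate left 2, 3 and 3 at 8, 32 and 48 weeks. Array weights gave 7 at 8 weeks, and 4 at 32 against 8 weeks and 3 for any age in normoxic hearts. The age dependence of Bhlhe40 gave 0 calls with array weights and 0 with no filter. Regressing out RIN gave 5 pairs in normoxic hearts.

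The replicate block, which treats hearts of the same number as belonging together, gave 6 pairs in normoxic and 6 in I/R hearts and 10 member probes for I/R over all ages. Leaving out 1 heart gave 10 to 11 member probes over all ages, 3 to 7 at 8 weeks (7 without normoxic replicate 6), 3 to 6 at 16 (3 without normoxic replicate 6), 5 to 6 at 32 and 4 to 8 at 48 weeks (4 without normoxic replicate 2, 3 or 4). It gave 0 to 2 for 32 against 8 weeks and for any age in normoxic hearts, 2 to 3 for 48 against 8 weeks and 3 to 4 for any age in I/R hearts, and 0 to 1 for the age dependence. Without 1 replicate number, 3 to 6 pairs passed in normoxic hearts (6 without number 3, 5 without number 5) and 4 to 7 in I/R hearts (7 without number 5).

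Over all probes, 22666 passed for I/R over all ages with no filter, against 13914. With 1 probe a gene, over 9811 genes, 7743 passed over all ages, 5192, 5331, 6440 and 6219 at 8, 16, 32 and 48 weeks, and 3855 and 5169 for 48 against 8 weeks and any age in I/R hearts. In normoxic hearts array weights gave 26, 518, 469 and 562 for 16, 32 and 48 against 8 weeks and any age, against 5, 202, 186 and 203. The authors' values gave 305 for 32 against 8 weeks, and only the groups compared and the replicate block gave 10 and 2 for 16 against 8 weeks. The fit to only the groups compared has no value for the mean over ages or the age dependence. Signal near background limits Hlf, Bhlhe41, Tef probes 2 and 3, Usp2 probe 3, Tsc22d3 and Arntl.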
